A study of Mus musculus with 4 samples.

Results

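Molecular chaperones were compared between CD4+/8+ double positive (DP) cells of normal mouse thymus and DP cells of a tumour that over-expressed Notch1-IC, the intracellular and constitutively active piece of the Notch1 receptor. The genes were taken by name: every probe set with a single platform gene symbol of the Hsp, DnaJ (A, B and C), Pdia and Cct families, together with Calr, Canx, Hyou1, Sdf2l1, Manf, Creld2, Herpud1, Xbp1 and Tcp1. This gave 227 probe sets of 95 genes among 18193 genes on the array. Of the 95 genes, 55 were grouped as cytosolic, 27 as genes of the endoplasmic reticulum (ER) and 7 as mitochondrial. Another 6 belong to none of these groups by name (Dnajc4, Dnajc22, Dnajc28, Hspb11, Hspbap1 and Cct8l1). The groups were assigned from general knowledge of the proteins, and location was not measured here. They are broad: the cytosolic group holds Dnajc17, described in splicing, and the ER group holds the unfolded protein response factor Xbp1. Hsp90ab1 and Dnajc19 had no probe set with a single symbol and were not analysed here.

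Each group held 2 samples, numbered 1 and 2, each measured on 1 Affymetrix Mouse 430 2.0 array. The normal samples carry the genotype label WT and the tumour samples the label T-ALL (T-cell acute lymphoblastic leukaemia), and all 4 have the genetic background WT C57/BLACK6. The tumour is labelled as peripheral and as a thymoma, so the site of the cells and their transformation cannot be told apart. The sources used here do not give the promoter that drives Notch1-IC, the ages, or whether the samples of a group came from separate animals. If they did not, the p-values reflect spread among these samples alone and that spread may be technical. The sample type label reads as tumour for all 4 samples. The normal samples were taken as normal from their titles, source names and genotypes.

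Chaperones bind unfolded proteins and keep them from aggregating. Hsp70 proteins take their clients from J-domain proteins of the DnaJ families and release them through exchange factors such as the Hsp110 proteins, Hsp90 proteins complete the folding of kinases and receptors, and the closed chambers of CCT (cytosol) and Hsp60 with Hsp10 (mitochondria) enclose a client while it folds. In the ER, BiP (Hspa5), the lectins calnexin and calreticulin and the protein disulfide isomerases (PDIs) fold secreted and membrane proteins, T-cell receptor chains among them. The heat shock response, through heat shock factors, and the unfolded protein response, through Atf6, Xbp1 and Atf4, induce cytosolic and ER chaperone genes.

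Promoters of some ER genes hold a known sequence. The genes chosen by name include ER stress genes such as Creld2, so the share of ER genes with it is not independent of that choice. The ER stress element, CCAAT and CCACG separated by 9 bases, is the site described for NF-Y and Atf6. It was searched on both strands from 250 bases before to 50 bases after the start of each gene in the RefSeq promoter table of the GRCm38.p6 build, which holds 79 of the 95 genes. It was present in 7 of 23 ER genes with a window, in 0 of 47 cytosolic and 0 of 4 mitochondrial ones, and in 37 (0.137%) of 27025 genes in all. The stretches around it are given here on the strand of each gene and with the element in capitals, because its carriers differed in how their RNA behaved. The genes Hspa5, Hsp90b1, Canx and Creld2 were higher in the tumour, while Calr, Pdia6 and Dnajc3 were not called. In Calr, in Creld2 and at the second of the pair in Hsp90b1 the element lies on the opposite strand, so the capitals begin with CGTGG.
Hspa5 (chr2:34771995-34772073, plus strand): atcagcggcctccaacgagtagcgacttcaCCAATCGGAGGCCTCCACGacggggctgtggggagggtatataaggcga
Hsp90b1 (chr10:86705523-86705666, minus strand): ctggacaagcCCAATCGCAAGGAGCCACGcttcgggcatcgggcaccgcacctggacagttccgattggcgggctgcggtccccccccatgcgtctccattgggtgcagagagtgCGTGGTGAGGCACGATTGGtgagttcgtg
Canx (chr11:50325770-50325848, minus strand): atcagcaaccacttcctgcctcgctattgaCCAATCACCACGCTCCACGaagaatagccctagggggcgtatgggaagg
Creld2 (chr15:88819490-88819568, plus strand): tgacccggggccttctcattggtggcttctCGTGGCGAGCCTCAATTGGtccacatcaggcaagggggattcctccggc
Calr (chr8:84847045-84847123, minus strand): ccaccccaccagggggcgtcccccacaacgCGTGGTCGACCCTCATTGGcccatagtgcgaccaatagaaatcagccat
Pdia6 (chr12:17266461-17266539, plus strand): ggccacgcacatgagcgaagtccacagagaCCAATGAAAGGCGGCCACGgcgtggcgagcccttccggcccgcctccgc
Dnajc3 (chr14:118937797-118937875, plus strand): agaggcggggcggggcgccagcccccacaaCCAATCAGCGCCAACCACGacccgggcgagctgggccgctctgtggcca

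A heat shock element, here GAA, TTC and GAA with 2 bases between each, was present in 4 of the 79 genes (Hspd1, Hspe1, Dnajb6 and Hsph1) and in 0.662% of all genes. Hspd1 and Hspe1 lie head to head on chromosome 1 and share a single stretch, in which the element occurs in 2 overlapping copies. It is shown because the RNA of both genes was higher in the tumour, so the choice followed the outcome. Among chaperone genes with a window the element was present in 3 of 20 called higher, 0 of 11 called lower and 1 of 48 not called. Whether it goes with the direction was not tested. Dnajb6, also shown, was called higher, but its call depended on single arrays, as given below.
Hspe1 (chr1:55088053-55088082, plus strand): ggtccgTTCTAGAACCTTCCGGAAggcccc
Dnajb6 (chr5:29735842-29735874, plus strand): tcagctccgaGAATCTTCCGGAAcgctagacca
In Hsph1 the match lay after the start of the gene. A shorter ER stress element (ATTGG and CCACG with 1 base between) was found in Herpud1 and Dnajb11 and in 0.0444% of all genes. An amino acid response element (TGATGNAA) was found in Herpud1 and Hspa14 and in 4.51% of all genes, and an E-box (CACGTG) in 9 of the 79 genes and in 8.09% of all genes. A match describes the letters of the window and is not a measured binding site.

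Values are log2 intensities, and differences are tumour minus normal on the log2 scale. Where a gene had several probe sets, the brightest on average stood for it. A gene was called where limma's Benjamini-Hochberg adjusted p over all 18193 genes was below 0.05. By this rule 25 of the 95 chaperone genes were called higher in the tumour and 15 lower, while 17.3% of all genes were called higher and 12.4% lower. The median difference was 0.04 over the chaperones and 0.09 over all genes. Chaperone genes are mostly well expressed, and among genes whose log2 intensity averaged 7 or more the counts were 22 higher and 14 lower of 59, beside 32.2% and 28.1% of all such genes. Chaperones as a whole were therefore called about as often as other genes of their level, in both directions. Both tumour arrays lay above both normal arrays in 37 of the 95 genes and below them in 27, and 33.7% and 26.4% of all genes did so.

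**Figure D1:**
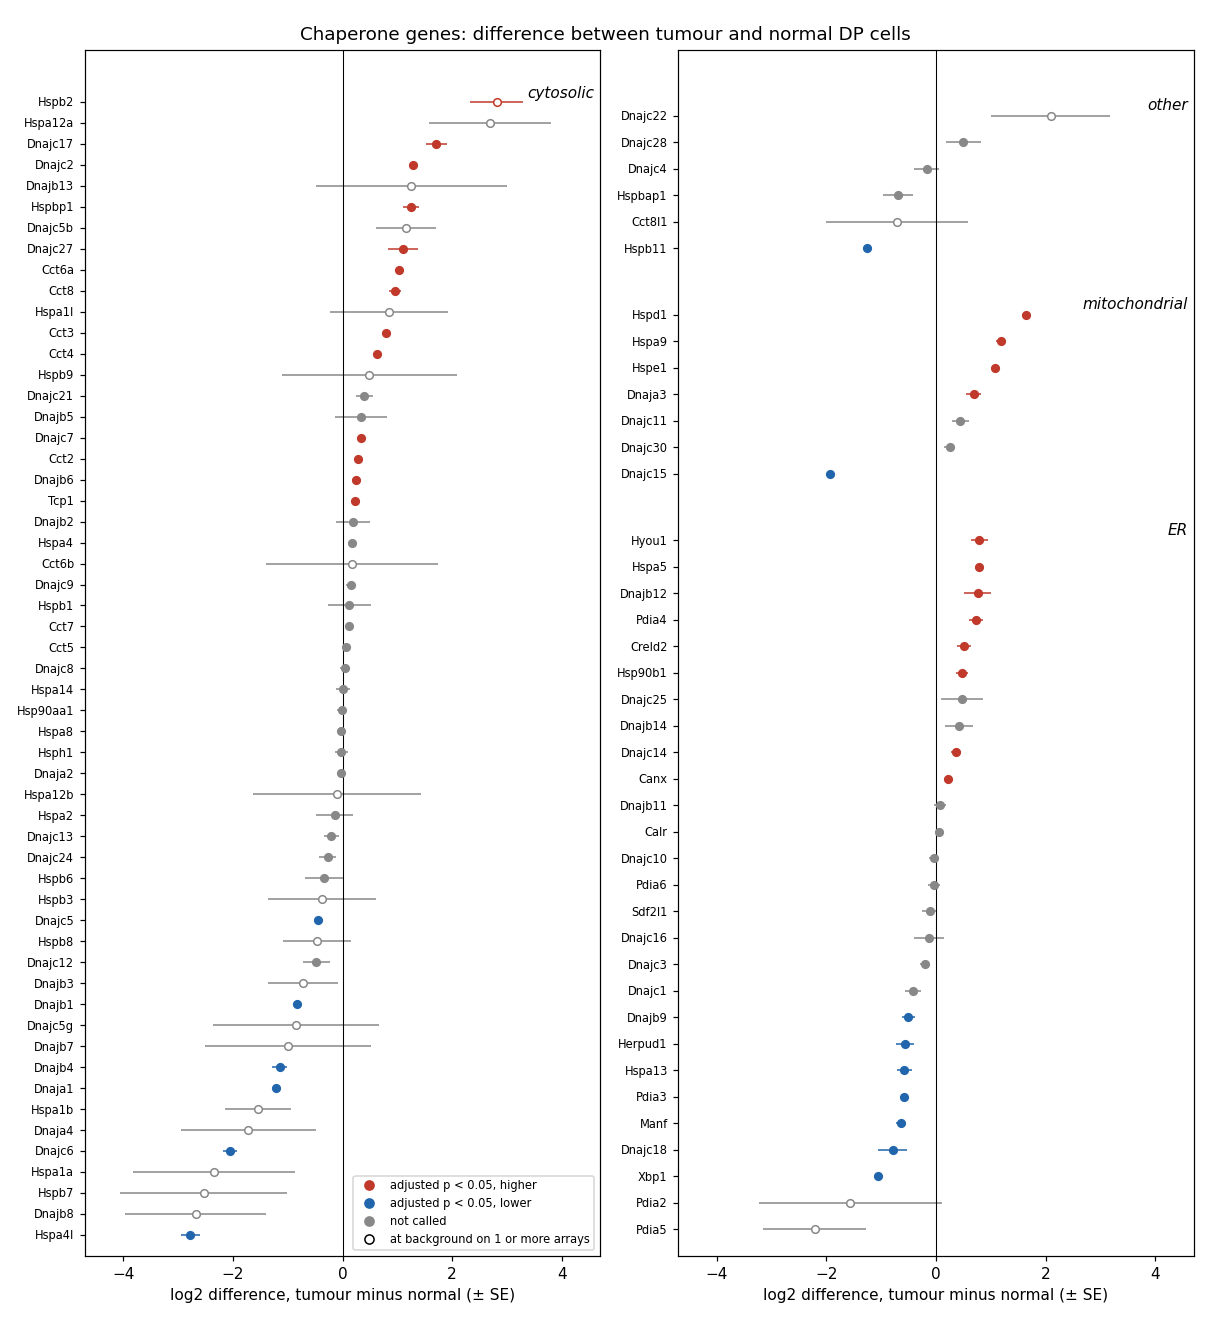
Difference between tumour and normal samples (log2, ± SE of the limma fit, 2 arrays a group) for all 95 chaperone genes, grouped by compartment; red and blue points are called higher and lower, and open points were at background on 1 or more arrays. The 7 mitochondrial genes include 4 called higher and 1 lower, while the 27 ER genes divide into 8 higher and 7 lower.

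Other features of the arrays differed between the groups along with these genes. The summed intensity of 11 macrophage and monocyte markers was 128 to 169 in the normal samples and 1888 to 2047 in the tumour samples. Of the 11, 7 were called higher, and 4 were at background on both normal arrays. The sum of 8 neutrophil markers was 159 to 233 and 1944 to 2001 (6 called higher, 2 at background on both normal arrays). The 7 measured DP markers summed to 46502 to 47965 in the normal and 15164 to 15210 in the tumour samples, with 6 called lower, although all 7 stayed above background on every array. Fewer cells of a type and less RNA per cell cannot be told apart in such bulk samples. The 7 NK and cytotoxic cell markers summed to 1176 to 1198 and 5468 to 5501 (4 called higher, Ncr1 at background on all 4 arrays). The 8 dendritic cell markers summed to 189 to 201 and 701 to 1021 (3 called higher). The sum of 3 erythroid markers was 12.5 to 21.7 and 95.3 to 135 (1 called higher). All 3 were at background on both normal arrays, and Hba-a1 was on all 4. The sum of 5 B cell markers was 336 to 371 and 111 to 139 (1 called lower, Cd79a and Pax5 at background on all 4 arrays). Its fall came from Cd79b, which measured 8.33 and 8.20 in the normal and 5.70 and 5.99 in the tumour samples. The other B cell markers differed by 0.07 to 1.79 and were not called. Of 6 plasma cell markers, listed because those cells hold much ER chaperone RNA, Sdc1 was higher by 4.79 (27.7-fold) and Jchain by 3.60 (12.1-fold). Ighm fell by 0.88 and Mzb1 by 0.47, and Tnfrsf17 was at background on all 4 arrays. The sum of the 6 was 4779 to 5413 in the normal and 3693 to 3856 in the tumour samples, while without Ighm it was 354 to 372 and 1194 to 1230. The ratio of 3′ to 5′ probe sets was 1.20 to 1.28 for actin and 0.90 to 0.91 for Gapdh in the normal samples, and 2.46 to 2.53 and 1.84 to 1.85 in the tumour samples. The part of other cells and of RNA quality in the differences below was not tested.

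Of the 7 mitochondrial chaperones, all with a mean of 7 or more, 4 were called higher and 1 lower, beside the 32.2% and 28.1% of all genes of that level. Hspd1 (Hsp60), Hspe1 (Hsp10, the lid of its chamber) and Hspa9 (the Hsp70 of the matrix, which also pulls in imported proteins) rose with Dnaja3, and Dnajc15, a J protein of the inner membrane, fell. Hspd1 measured 10.45 and 10.39 in the normal samples and 12.07 and 12.05 in the tumour samples. This was a rise of 1.64 ± 0.067 (SE, n = 2 a group; 3.12-fold; limma adjusted p = 2.21e-07). Its partner Hspe1 measured 10.73 and 10.64 against 11.79 and 11.75, a rise of 1.09 ± 0.070 (2.12-fold; limma adjusted p = 3.16e-06). For both genes the groups lay far apart in relation to the spread within them. Hspa9 measured 9.05 and 8.99 against 10.18 and 10.24, a rise of 1.19 ± 0.088 (2.28-fold; limma adjusted p = 7.18e-06). Its other 2 probe sets above background on all arrays rose by more, 2.19 and 2.41.

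Dnajc15, which in mice restrains respiratory complex I, moved the other way. It measured 11.77 and 11.87 in the normal samples and 9.89 in both tumour samples, and fell by 1.93 on the log2 scale (SE 0.074; 3.80-fold lower; limma adjusted p = 1.64e-07). Dnaja3, a J-protein partner of Hspa9, measured 7.48 and 7.80 against 8.32 and 8.34, a rise of 0.69 ± 0.144 (limma adjusted p = 0.0050). A second probe set of Dnaja3 differed by -0.71 and was not called, so the direction of this gene rests on the probe set chosen. Dnajc11 and Dnajc30 differed by 0.44 and 0.25 and were not called (limma adjusted p = 0.0635 and 0.114), although in both genes the tumour arrays lay above the normal ones. The 5 calls of the compartment were kept when any 1 array was left out.

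**Figure D2:**
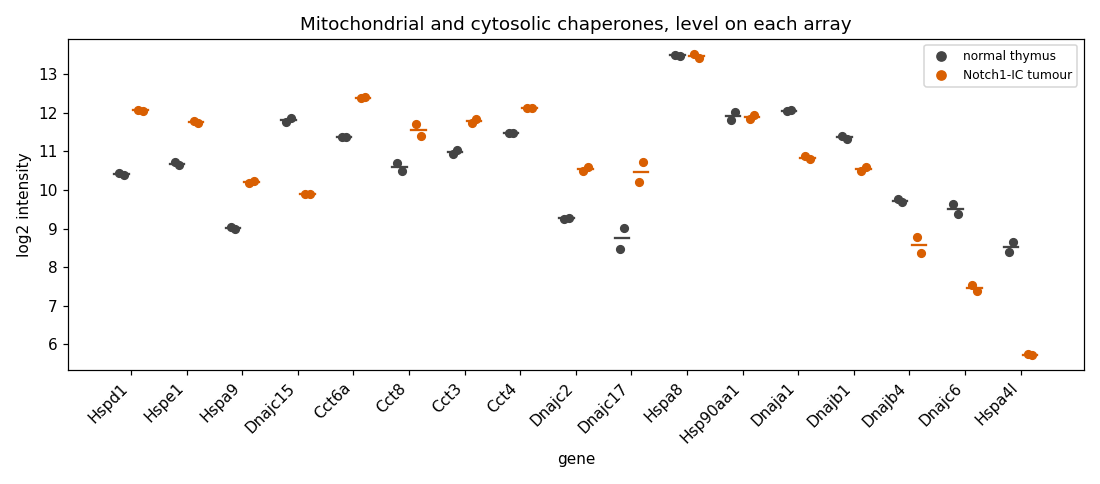
Log2 intensity of 17 mitochondrial and cytosolic chaperone genes on each of the 4 arrays (grey, normal; orange, tumour; bars, group means). The paired points of a group lie close together beside the steps of Hspd1, Hspe1, Hspa9, Cct6a, Dnajc15, Dnajc6 and Hspa4l, while those of Hspa8 and Hsp90aa1 overlap between groups.

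The CCT chamber, which folds actin, tubulin and cell cycle proteins, was higher for several of its subunits in their brightest probe sets. Of 9 cytosolic CCT genes 6 were called higher and 0 lower (17.3% and 12.4% of all genes, 32.2% and 28.1% of those averaging 7 or more), with a median of 0.29. That count of 6 was 3 with the mean of probe sets, 2 without sets that may bind other transcripts, 2 with arrays scaled to the hybridization controls and 0 with limma's default prior. Cct6a measured 11.37 and 11.37 in the normal and 12.37 and 12.42 in the tumour samples, a rise of 1.02 ± 0.061 (2.03-fold; limma adjusted p = 1.98e-06). Cct8 measured 10.69 and 10.49 against 11.70 and 11.40, a rise of 0.96 ± 0.108 (limma adjusted p = 0.000109). The subunits did not move by one amount. Cct3 and Cct4 rose by 0.80 ± 0.072 and 0.64 ± 0.060, and Cct2 and Tcp1 by 0.29 ± 0.077 and 0.23 ± 0.069. Cct5 and Cct7 differed by 0.06 and 0.12 and were not called (limma adjusted p = 0.600 and 0.197). Cct6b, a testis form, was at background on all 4 arrays.

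The smaller CCT differences depended on single arrays. Tcp1 was not called without normal sample 2, tumour sample 1 or tumour sample 2 (limma adjusted p = 0.150, 0.137 and 0.190). Cct2 was not called without normal sample 2 or tumour sample 1 (0.136 and 0.211). Probe sets whose names end in _x_at, _s_at or _a_at may bind more than a single transcript, and the sets that represent Cct3, Cct4 and Cct8 are of these kinds. Without them Cct4 and Cct8 differed by 0.11 and 0.06 and were not called. The only Cct8 set left was at background on all 4 arrays and the remaining Cct3 set was near background, so neither gives a direction. The lower count of CCT genes without such sets, given above, includes these losses. As the mean of their sets Cct3, Cct4 and Cct8 differed by 0.17, 0.14 and 0.51 and were not called (limma adjusted p = 0.439, 0.542 and 0.490). Each of these means includes a set at background on 3 or 4 arrays.

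The brightest probe sets of the central cytosolic chaperones were not called, while other sets of the same genes were. Hspa8, the constitutive Hsp70, measured 13.50 and 13.47 in the normal and 13.52 and 13.41 in the tumour samples, a difference of -0.02 ± 0.055. The arrays overlapped between groups. Of its other 3 probe sets 2 were called lower, by 0.68 and 2.01 on the log2 scale. Hspa8 was called lower as the mean of its sets (-0.73; limma adjusted p = 0.000513) and without sets that may bind other transcripts (-2.01; 0.000182). Hsp90aa1, the inducible cytosolic Hsp90, measured 11.80 and 12.02 against 11.85 and 11.95, and differed by -0.01 ± 0.082. Its probe sets were called in both directions, 1 at -0.39 and another at 0.36, and without sets that may bind other transcripts the gene was called lower (-0.39; limma adjusted p = 0.00174). Hspa1a and Hspa1b, the heat-inducible Hsp70 pair whose near-identical transcripts can share probes, were dim. Hspa1b measured 4.49 and 4.85 against 2.95 and 3.31, where both tumour arrays were at background. This is at least 1.65-fold lower and was not called (limma adjusted p = 0.0900).

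Several J proteins that serve the cytosolic Hsp70 fell, as did an exchange factor. Hspa4l, an Hsp110 protein, measured 8.38 and 8.65 in the normal and 5.74 and 5.73 in the tumour samples. It fell by 2.78 on the log2 scale (SE 0.172; 6.87-fold lower; limma adjusted p = 2.54e-06), and all 5 of its probe sets were called lower. The related Hspa4 and Hsph1 differed by 0.18 and -0.02 and were not called, although 1 further probe set of Hsph1 was called lower and Hspa4 had sets called both ways. Dnaja1 measured 12.04 and 12.06 against 10.87 and 10.81, and fell by 1.22 on the log2 scale (SE 0.066; limma adjusted p = 1.05e-06). Its other 2 probe sets differed by 0.23 and -0.08 and were not called. Dnajb1, the main heat-inducible J protein, measured 11.40 and 11.33 against 10.49 and 10.59, and fell by 0.83 on the log2 scale (SE 0.074; limma adjusted p = 2.47e-05). Here both probe sets were called lower. Dnajb4 measured 9.76 and 9.69 against 8.78 and 8.37, and fell by 1.14 on the log2 scale (SE 0.134; limma adjusted p = 0.000141).

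A pair of J proteins with roles in vesicle traffic also fell. Dnajc6, or auxilin, which uncoats clathrin vesicles with Hspa8, measured 9.63 and 9.39 in the normal and 7.53 and 7.39 in the tumour samples. It fell by 2.05 on the log2 scale (SE 0.127; 4.14-fold lower; limma adjusted p = 2.56e-06). Dnajc5, the cysteine string protein, fell by 0.44 on the log2 scale (SE 0.087; limma adjusted p = 0.00354). Of its other 4 probe sets 1 was called, also lower, and the 1 set of Dnajc5 that is of none of the 3 kinds named above differed by -0.04 and was not called. Hspb11, which despite its name is a subunit of intraflagellar transport, fell by 1.25 on the log2 scale (SE 0.082; limma adjusted p = 3.40e-06).

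The cytosolic J proteins that rose include one of the ribosome and one linked to splicing. Dnajc2, which recruits Hsp70 to the ribosome where new chains leave it, measured 9.25 and 9.27 in the normal and 10.50 and 10.60 in the tumour samples. It rose by 1.29 ± 0.085 (2.45-fold; limma adjusted p = 3.66e-06), and its 3 probe sets above background were all called higher. Dnajc17, described in splicing, measured 8.48 and 9.01 against 10.20 and 10.72, a rise of 1.71 ± 0.192 (3.28-fold; limma adjusted p = 0.000106). The spread within each group was wide for this gene but the groups did not overlap. Hspbp1, an exchange factor of Hsp70, measured 7.31 and 7.07 against 8.32 and 8.55, a rise of 1.25 ± 0.151 (limma adjusted p = 0.000173). Dnajc27 rose by 1.10, Dnajc7 by 0.33 and Dnajb6 by 0.24. Dnajc27 was not called without normal sample 1 or tumour sample 1 (limma adjusted p = 0.0859 and 0.106), Dnajc7 without tumour sample 2 (0.0720), and Dnajb6 without any 1 of the 4 arrays (0.0869 to 0.188). Hspb2, a small heat shock protein, was called higher (6.34 and 6.01 in the tumour), but 1 of its 2 normal arrays was at background. Among the 55 cytosolic genes 13 (23.6%) were called higher and 6 (10.9%) lower, beside 17.3% and 12.4% of all genes. Of the 31 that averaged 7 or more, 11 (35.5%) were higher and 6 (19.4%) lower, beside 32.2% and 28.1% of all such genes.

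ER chaperones were called in both directions at about the rate of other genes of their level. Of 27 genes 8 were called higher and 7 lower. Of the 20 that averaged 7 or more, 7 (35%) were higher and 6 (30%) lower, beside 32.2% and 28.1% of all such genes. The median of the 27 was -0.03, and Xbp1 was the only called gene that differed by 2-fold or more. BiP and several of its partners rose. Hspa5 (BiP, the ER Hsp70) measured 11.30 and 11.12 in the normal and 11.95 and 12.04 in the tumour samples, a rise of 0.79 ± 0.078 (1.72-fold; limma adjusted p = 4.56e-05). Its 3 probe sets were all called higher. Hyou1, which exchanges nucleotide on BiP, measured 7.38 and 7.70 against 8.18 and 8.49, a rise of 0.79 ± 0.163 (limma adjusted p = 0.00436). Pdia4, a PDI of the BiP complex, measured 7.58 and 7.69 against 8.32 and 8.42, a rise of 0.73 ± 0.128 (limma adjusted p = 0.00168). The groups did not overlap for any of these genes. Hsp90b1, the ER Hsp90, measured 9.82 and 10.02 against 10.25 and 10.53, a rise of 0.47 ± 0.112 (limma adjusted p = 0.01002). Creld2, an ER stress protein, rose by 0.51 ± 0.125, and the membrane J proteins Dnajb12 and Dnajc14 by 0.77 ± 0.248 and 0.36 ± 0.094. Canx (calnexin) rose by 0.22 ± 0.069 (limma adjusted p = 0.0411).

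Of these 8 ER genes, Hspa5 and Pdia4 kept their call whichever array was left out. Canx was not called without any 1 of the arrays (limma adjusted p = 0.0770 to 0.261), nor was Dnajc14 (0.0529 to 0.0951). Hyou1 was not called without normal sample 1 or tumour sample 2 (0.0512 and 0.0604), and Hsp90b1 without the same arrays (0.107 and 0.123). Creld2 was not called without normal sample 1, normal sample 2 or tumour sample 1 (0.0519, 0.0514 and 0.0776), and Dnajb12 without the same 3 arrays (0.0988, 0.193 and 0.245). As the mean of their probe sets, Pdia4, Hyou1, Dnajb12 and Dnajc14 differed by -0.34, 0.01, -0.07 and -0.02 and were not called. The further set of Pdia4 was at background on all 4 arrays, 1 set of Hyou1 on 3 and the further set of Dnajb12 on 1. The 2 Hyou1 sets above background on all arrays differed by 0.79 and 0.84. Canx differed by -0.25 without sets that may bind other transcripts and was not called, while its dimmest set was called higher, at 1.52.

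The unfolded protein response factor Xbp1 and a second set of ER genes fell. Xbp1, which when spliced drives genes of secretion and ER-associated degradation, measured 11.66 and 11.57 in the normal and 10.52 and 10.62 in the tumour samples. It fell by 1.05 on the log2 scale (SE 0.074; 2.07-fold lower; limma adjusted p = 5.46e-06). All 4 of its probe sets were lower and 3 were called, with differences from -1.89 to -0.45. The 3 called sets are of the kinds that may bind other transcripts, and the fourth was dim. The array does not tell spliced from unspliced Xbp1 RNA. Manf, a secreted ER stress factor, measured 10.87 and 10.65 against 10.15 and 10.12, and fell by 0.63 on the log2 scale (SE 0.091; limma adjusted p = 0.000518). Pdia3, the PDI that works with calnexin and calreticulin and in the MHC class I loading complex, measured 10.77 and 10.69 against 10.15 and 10.14. It fell by 0.58 on the log2 scale (SE 0.077; limma adjusted p = 0.000318). The mean of its sets, with a second one near background, differed by -0.11 and was not called.

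Hspa13, an ER Hsp70-like protein, fell by 0.57, Herpud1, which organises ER-associated degradation, by 0.56, and Dnajb9, a BiP partner that acts on Ire1 in mammals, by 0.50. The J protein Dnajc18 fell by 0.79. These 4 calls depended on single arrays, while those of Xbp1, Manf and Pdia3 did not. Hspa13 was not called without normal sample 2 or tumour sample 1 (limma adjusted p = 0.0748 and 0.0540). Herpud1 was not called without normal sample 1, normal sample 2 or tumour sample 2 (0.218, 0.0790 and 0.205). Dnajb9 was not called without normal sample 2, tumour sample 1 or tumour sample 2 (0.109, 0.0827 and 0.0648), and Dnajc18 without normal sample 1, normal sample 2 or tumour sample 1 (0.257, 0.119 and 0.226). Without normal sample 1 the count of ER genes called higher was 2 and of those called lower 6, and without normal sample 2 both counts were 4.

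**Figure D3:**
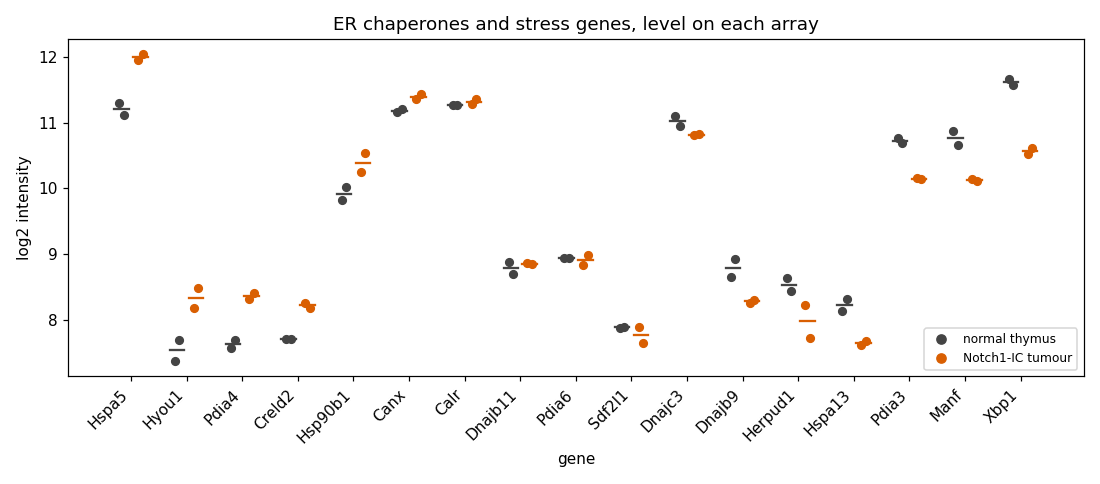
Log2 intensity of 17 ER chaperone and stress genes on each of the 4 arrays (grey, normal; orange, tumour; bars, group means). Hspa5, Hyou1, Pdia4, Creld2 and Hsp90b1 lie higher in the tumour samples, Xbp1, Manf, Pdia3, Hspa13, Herpud1 and Dnajb9 lower, and Calr, Dnajb11, Pdia6 and Sdf2l1 close together.

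Other folding factors of the ER were not called. Calr (calreticulin) measured 11.26 and 11.27 in the normal and 11.28 and 11.35 in the tumour samples, a difference of 0.05 ± 0.067. Pdia6, Dnajb11 and Sdf2l1, the last a partner of Dnajb11, differed by -0.03, 0.07 and -0.12. Dnajc3, a BiP co-chaperone, differed by -0.21 and was not called (limma adjusted p = 0.0826), but its other 4 probe sets were all called lower, by 0.97 to 2.03 on the log2 scale. Genes with the ER stress element printed above thus included rises (Hspa5, Hsp90b1, Creld2 and Canx), a pair with differences near 0 (Calr and Pdia6) and Dnajc3. Among ER genes with a promoter window the element was present in 4 of 7 called higher, 0 of 4 called lower and 3 of 12 not called. The calls of Hsp90b1, Canx and Creld2 depended on single arrays, as given above. Dnajc3, counted as not called, was called lower as the mean of its sets (-1.16) and with the replicate block. Whether the element goes with the direction was not tested.

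Probe sets of the same gene often differed. Over the 227 chaperone probe sets, tested among all probe sets, 40 were called higher and 41 lower, beside 11.3% and 11.5% of all sets. Of 42 genes with several sets above background on all 4 arrays, all sets had one sign in 26 and opposite signs in 16. In 14 of them the sets spanned more than 1 on the log2 scale. Cct3 and Hsp90aa1 had sets called in both directions. Of 51 chaperone sets that may bind other transcripts and averaged 7 or more, 20 were higher and 12 lower, against 13 and 15 of 55 other sets. Over all such sets of the array the shares were 35.6% higher and 25.3% lower, against 25.2% and 31.9% of the others. The difference between these kinds of set was not tested. Without these sets 14 chaperone genes were called higher and 16 lower (14.5% and 12.3% of all genes). With the mean of all sets of a gene, 15 were called higher and 17 lower (10.3% and 9.70% of all genes).

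**Figure D4:**
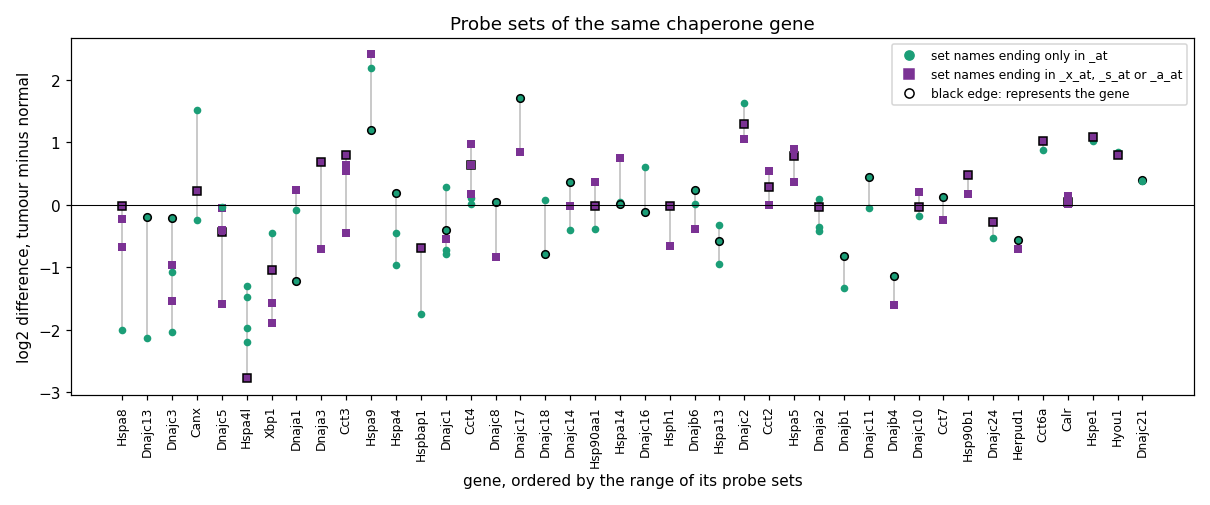
Difference between tumour and normal samples (log2) of every probe set above background, for 42 chaperone genes with several such sets, ordered by their range. Circles and squares mark the naming class of a set and black edges the set that represents the gene; sets of Hspa4l, Xbp1, Hspa5 and Dnajc2 stay on one side of 0, and those of Hspa8, Cct3 and Hsp90aa1 spread widely or cross it.

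Scaling between arrays sets the direction of the smaller differences. When arrays were scaled to the hybridization controls in place of the deposited normalization, the median of all genes moved from 0.09 to -0.51. Then 9 chaperone genes were called higher and 45 lower, beside 7.31% and 28.9% of all genes. The 9 were Hspd1, Hspe1, Hspa9, Cct6a, Cct8, Dnajc2, Dnajc17, Hspbp1 and Hspb2, and since this scaling lowers every difference by the same amount, the losses and turns follow from its construction. Tcp1, Cct2, Canx, Dnajb6 and Dnajc7 turned from higher to lower, with both directions called. Hspa5, Hyou1 and Pdia4 differed by 0.18, 0.19 and 0.13 and were not called, which still is above the shifted median.

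With limma's default prior, which takes less from the other genes in judging the spread of each, 3 chaperone genes were called higher (Hspd1, Hspa9 and Dnajc2) and 5 lower (Hspa4l, Dnaja1, Dnajc6, Dnajc15 and Hspb11). This compares with 4.17% and 2.20% of all genes. These 8 genes kept their call under all 16 alternatives tried, spike scaling and the other choices of probe sets included. The default prior that picked out the 8 is itself 1 of the 16. Hspd1 and Dnajc15 have 1 probe set each, so the other choices of probe sets could not change them. For Hspa9, Dnaja1, Dnajc6 and Hspb11 the same set stands for the gene without sets that may bind other transcripts.

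Further genes of the same pathways, from lists that the naming rule did not take, were called higher in 36 and lower in 28 of 112 measured genes, with a median of 0.08. These shares lie near the 32.2% and 28.1% of all genes averaging 7 or more. Co-chaperones of Hsp70 and Hsp90 were called higher in 7 and lower in 4 of 19 genes. Bag3, which links Hsp70 to autophagy, measured 3.74 and 3.87 in the normal and 7.25 and 7.04 in the tumour samples. It was called higher, but 1 normal array was at background and the gene reached the level for naming through the tumour samples alone. Cdc37, which brings kinases to Hsp90, fell by 1.42 on the log2 scale, but the mean of its sets differed by 0.21 and was not called. Fkbp5, an Hsp90 immunophilin, rose by 0.92, where the mean of its sets was -0.32 and not called. Prefoldin, which hands clients to CCT, had 1 higher (Pfdn1, 0.68) and 1 lower gene (Pfdn5, -0.26) of 6. Pfdn5 was not called without normal sample 1, tumour sample 1 or tumour sample 2 (limma adjusted p = 0.140, 0.0577 and 0.200). Hsf2, Hsf4 and Hsf5 were dim and not called, and Hsf1, the main factor of the heat shock response, had no probe set with a single symbol and was not analysed here.

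Mitochondrial import and protease genes were called higher in 10 and lower in 4 of 20 (32.2% and 28.1% of all genes averaging 7 or more). Atf5, a transcription factor of the mitochondrial stress response, measured 6.50 and 6.36 in the normal and 8.62 and 8.48 in the tumour samples, a rise of 2.12 ± 0.150 (limma adjusted p = 5.45e-06). The matrix protease Clpp rose by 1.66 and the import receptor Tomm70a by 1.57, but each lost its call under 1 other choice of probe sets. Clpp differed by 0.16 without sets that may bind other transcripts, and Tomm70a by 0.21 as the mean of its sets. Grpel1, the exchange factor of Hspa9, fell by 1.34 on the log2 scale (SE 0.094; limma adjusted p = 4.98e-06). In the main fit it thus moved against its Hsp70 partner. Grpel1 lay outside the naming rule, and its call was not followed under the alternatives.

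The ER lists had calls in both directions, with 32.2% of all genes averaging 7 or more called higher and 28.1% lower. PDI-like enzymes were called higher in 5 and lower in 5 of 14. P4hb, the founding PDI, measured 10.10 and 10.09 in the normal and 10.98 and 11.02 in the tumour samples, a rise of 0.90 ± 0.074 (limma adjusted p = 1.35e-05). Tmx2 rose by 0.94 and Erp44, which retrieves proteins to the ER, fell by 0.80. Import and glycoprotein folding genes were called higher in 6 and lower in 7 of 19, with subunits of a single enzyme, the oligosaccharyltransferase, on both sides: Rpn1 and Rpn2 rose by 1.28 and 0.68, and Ostc fell by 0.75. Tmx2 and Rpn1 differed by 0.07 and 0.27 and were not called without sets that may bind other transcripts. ER-associated degradation was called higher in 4 and lower in 4 of 15. The ligase Syvn1 rose by 0.66, and Edem2 and Derl2 fell by 0.84 and 0.63. Edem2 was not called without normal sample 1 (limma adjusted p = 0.0554).

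Regulators of the unfolded protein response were called higher in 3 and lower in 3 of 16 (17.3% and 12.4% of all genes, 32.2% and 28.1% of those averaging 7 or more). The stress sensors Ern1 (Ire1) and Eif2ak3 (Perk) differed by 0.06 and 0.04 and were not called, nor was Atf4 (0.20). Mbtps2, the protease that releases Atf6, rose by 0.72. Nfya, a subunit of the NF-Y factor, fell by 0.87 and was not called under either other choice of probe sets (differences of -0.73 and -1.14). Ddit3 (Chop), a stress-induced factor, fell by 0.82, but was not called without normal sample 1, normal sample 2 or tumour sample 2 (limma adjusted p = 0.176, 0.176 and 0.178).

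**Figure D5:**
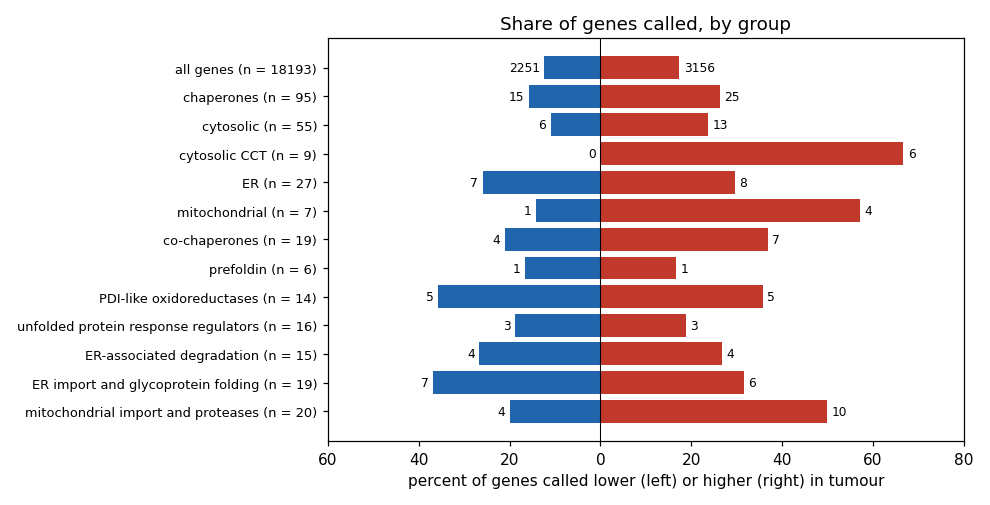
Percent of genes called lower (left, blue) and higher (right, red) in the tumour for all genes, the chaperones with their compartments, and the related lists; numbers at the bars are counts of genes. The mitochondrial chaperones (4 of 7), the CCT genes (6 of 9) and the mitochondrial import and protease list (10 of 20) reach furthest to the right, and the ER groups are near balance.

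The remaining chaperone genes were dim or not called. Of the 95 genes 73 were above background on all 4 arrays and 9 were at background on all 4. Dim genes had standard errors up to 1.74, so that log2 differences of 2 or more could go uncalled. Hspa12a was at background on both normal arrays and is at least 1.52-fold higher in the tumour, which was not called (limma adjusted p = 0.109). Pdia5 was at background on both tumour arrays and is at least 1.17-fold lower, also not called (limma adjusted p = 0.115). Among brighter cytosolic genes Dnaja2, Dnajc8, Hspa14 and Dnajc9 differed by -0.04, 0.04, 0.01 and 0.15 and were not called.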

How the data were processed

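Biotin-labelled cRNA was made from 100 ng of total RNA per sample with a kit that primes at the 3′ end, per the labels' protocols. The authors deposited 1 linear intensity per probe set and array, and the deposited intensities of the 4 arrays have nearly the same distribution. RMA is named, with no version, per the submitters' processing notes. Values below 1 are unusual for RMA, so the summarisation step is not settled.

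Log2 was taken of the deposited values. Of 45037 probe sets that are not controls, 34945 had 1 symbol in the platform annotation, and all 95 chaperone genes matched a RefSeq Entrez entry. Differences were fitted with limma 3.58.1 (lmFit, eBayes with trend and robust prior) in R 4.3.3, with no covariate and 2 residual degrees of freedom, to which the prior added 7.23 (median) and the default prior 0.989. The fit was tested on simulated data. An array's background was the highest of 27 bacterial control probe sets (12.3 to 17.8), and 51.0% to 59.0% of sets lay above it. Spike scaling used 14 BioB, BioC and BioD sets. The number of arrays limits the precision.

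The members and lists were chosen with earlier results of these data known. Named are a fixed set of central chaperones, up to 5 called genes per direction and compartment, and up to 3 called genes per related list, by size of difference and with a mean of at least 7 in the higher group. Other members were named after their values were seen. Alternatives changed the prior, scaling, filter, offset, probe set choice, threshold, replicate block and arrays.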

Additional observations from a re-analysis of the deposited data

How the results depend on the processing

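Median subtraction, repeated quantile normalization, both filters on dim sets (the dimmest 30% and 50%), an offset of 16 before log2 and the replicate block kept every count of chaperone and related genes within 1.5 times its value. With the default prior, 3 chaperone genes were higher and 5 lower (cytosolic 1 and 3, ER 0 and 0, mitochondrial higher 2, related 6 and 2). Spike scaling gave 9 and 45 (cytosolic 6 and 24, ER 0 and 16, mitochondrial lower 2, related 10 and 65). The mean of probe sets gave 15 higher (cytosolic 8, ER 4), and leaving out sets that may bind other transcripts 14 higher (cytosolic 7, ER 4, related 20). An adjusted p of 0.01 left 16 higher (ER 3 higher, 4 lower), and a 2-fold minimum 9 and 7 (cytosolic higher 6, ER 0 and 1, related 9 and 4). Leaving out 1 array at a time gave 18 to 19 chaperone genes higher and 12 to 14 lower, with cytosolic 10 to 12 and 6 to 7, ER 2 to 4 and 4 to 6, mitochondrial 4 and 1, and related 26 to 30 and 18 to 22. There the lone array of a group is assumed to vary like the other group, and 25 of the 40 called genes kept their call throughout.

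Directions reversed under spike scaling for Tcp1 (-0.37), Cct2 (-0.31), Cct5 (-0.54), Cct7 (-0.48), Hsp90b1 (-0.13), Calr (-0.55), Canx (-0.39), Creld2 (-0.087) and Dnajb11 (-0.53), which by construction lowers every difference by the same amount. The mean of probe sets reversed Pdia4 (-0.34), Dnaja3 (-1.03), Cdc37 (0.21), Fkbp5 (-0.32) and Pfdn5 (0.34), and leaving out sets that may bind other transcripts Cct3 (-2.40), Canx (-0.25) and Dnaja3 (-3.07). The sets left for Cct3 and Dnaja3 were at background on 2 and 3 arrays, and the further set in the Pdia4 mean on all 4. Those values therefore give no firm direction, and the cause of the other reversals was not tested. The labels do not say that a replicate number marks a shared animal or day. Deviations of same-numbered samples correlated at 0.13, and 2 pairs cannot settle the pairing; background was 15.95 and 17.80 on the arrays numbered 1 and 12.28 and 13.32 on those numbered 2. With the replicate block 27 chaperone genes were higher and 17 lower, beside 19.1% and 14.0% of all genes. Dnajc11 (0.44) and Dnajc21 became called higher and Dnajc1 and Dnajc3 lower, and of 63 named genes 62 kept their call. Near background, where standard errors reached 1.74, small differences were not detectable.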
